A study of Homo sapiens with 3 samples.

Results

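Expression of 10 genes of the Notch pathway was measured by microarray in a lung cancer cell line and its osimertinib-resistant derivatives. The genes were taken by symbol from the probe annotation and are the receptors NOTCH1, NOTCH2, NOTCH3 and NOTCH4, the ligands JAG1, JAG2 and DLL1 and the target genes HES1, HEY1 and HEYL. They make up 10 of 43316 genes and 14 of 58200 probes on the array. H1975 is a non-small cell lung cancer line sensitive to osimertinib, an inhibitor of mutant EGFR, and it carries an activating mutation and a resistance mutation in EGFR. OR1 and OR2 were each selected from H1975 over 4 months in osimertinib, which was raised in steps to a final 2 μmol/L. Both come from the same EGFR-mutant parent, so they model resistance in a single cell line, and all 3 lines were grown in the same medium. Total RNA of each line was hybridized to 1 array, so nothing was replicated and ratios carry no p-value.

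Notch receptors are single-pass membrane proteins that are bound by Delta or Jagged ligands on a neighbouring cell. Binding leads to cleavage by an ADAM protease and then by gamma-secretase, which frees the intracellular domain to enter the nucleus, where it joins the DNA-binding protein RBPJ and MAML co-activators and turns on genes of the HES and HEY families. In the lung the pathway governs the choice between airway cell fates, and it holds back the neuroendocrine program.

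Between H1975 and both resistant lines, NOTCH3 and HEY1 were lower beyond the ratio of the methods, no member was higher in both, and the other measured members were called in a single line, on a single probe or not at all. NOTCH3 mRNA was 8.72-fold lower in OR1 and 4.24-fold lower in OR2. HEY1 mRNA was at least 16.3-fold lower in OR1 and at least 17.2-fold lower in OR2. NOTCH4 mRNA was 2.55-fold higher in OR1 and had a ratio of 1.42 in OR2, which was not called. JAG2 had ratios near 1 on the probe that stood for the gene, while another of its probes was 7.78-fold lower in OR1 and 7.64-fold lower in OR2.

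The intensity of a probe is the brightness of its spot. Each array was scaled on the 75th percentile of its intensities, which was 157 in H1975, against 138 for OR1 and 162 for OR2, and a scaled intensity of 1 equals that percentile. The scanner software called 45.6% of probes well above background in H1975, against 45.9% for OR1 and 45.8% for OR2, and no spot was saturated. The background limit, taken as the lowest scaled intensity the software still called, was 0.0798 in H1975, against 0.0826 for OR1 and 0.0780 for OR2. A gene below background on 1 side of a ratio was set to that value there, and its ratio is written "at least" or "at most". A gene was called higher at a ratio of at least 2 and lower at a ratio of at most 0.5, the ratios of the methods. Among genes well above background on both arrays of the ratio, the median log2 ratio was 0.03 for OR1 and -0.06 for OR2. The error given with a ratio is a technical standard deviation (SD) on the log2 scale, propagated from the error estimate of the scanner software. Its median was 0.21 over probes well above background on both arrays of the ratio. This error covers the reading of 1 RNA sample, while the spread between cultures is not known, and the number of arrays limits the precision. Scaled intensities of different probes cannot be set against each other.

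Of the 10 members, 9 passed the background limit somewhere and DLL1 did on none of the 3 arrays. In OR1, 1 of the 9 was called higher and 2 were called lower, where 9.17% of 21868 measured genes were higher and 9.58% were lower. In OR2, 0 of the 9 were called higher and 2 were called lower, against 7.72% and 8.7% of 21688 genes. In both resistant lines 0 members were higher and 2 were lower, where 5.09% of 22417 genes were higher in both and 6.32% were lower in both. The 2 lower members were NOTCH3 and HEY1. OR1 and OR2 share the H1975 array, so their ratios are not independent. The median log2 ratio of the members was -0.50 in OR1, with 7 members below a ratio of 1 and 2 above. In OR2 it was -0.52, with 6 below and 3 above. A share over 9 genes moves by a large step with each gene, and nothing is read from it against all genes.

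**Figure D1:**
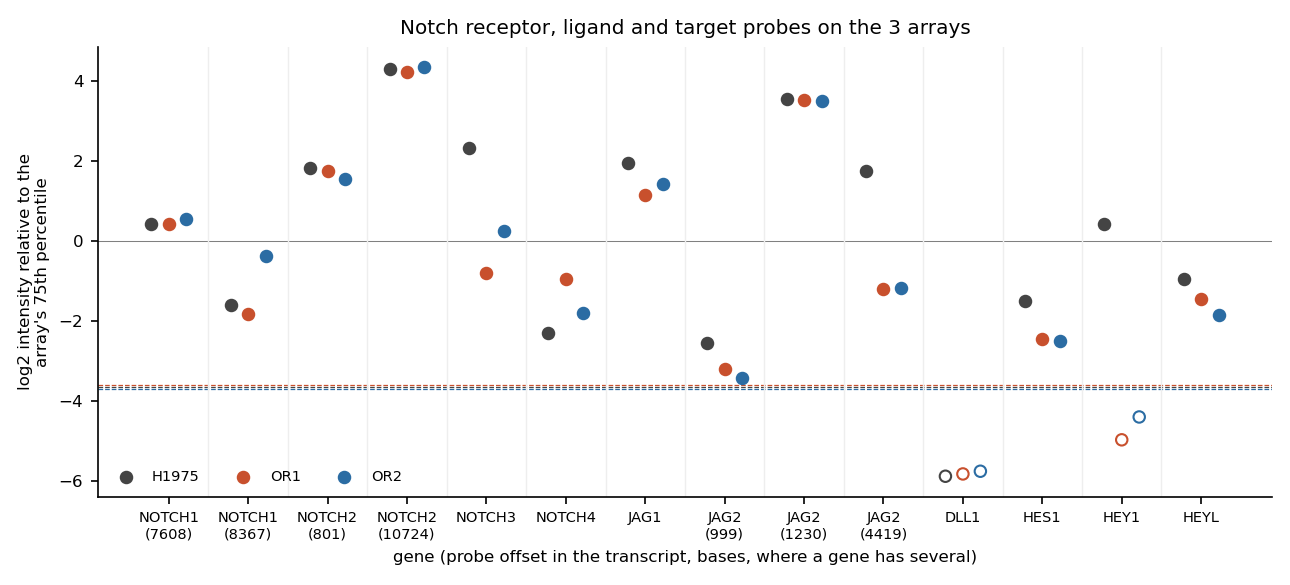
Scaled log2 intensity of every probe of the 10 Notch genes in H1975, OR1 and OR2 (1 array each). Open points were not well above background and the dashed lines mark the lowest intensity called well above background on each array. NOTCH3, HEY1 and the JAG2 probe at base 4419 lie lower in both resistant lines, and DLL1 lies below the lines on all 3 arrays.

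The probes are 60 bases long, and the file gives each an offset in its transcript and a position on hg19. The JAG2 and NOTCH1 probes are shown because the ratio depended on which of them was read, the NOTCH3 probe because it carries a called decrease, and the NOTCH2 probe because it matches a second gene. Each is written 5′ to 3′ in the sense of the transcript, on the minus strand of the genome. For the probes that may lie past the coding sequence, the first 30 bases are given. Capitals mark the stop codon of NOTCH1.
NOTCH1 probe at base 7608: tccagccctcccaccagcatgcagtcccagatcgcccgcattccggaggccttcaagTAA
NOTCH1 probe at base 8367: acccatggtaccaatcatgaatctttgttt
NOTCH2 probe at base 801: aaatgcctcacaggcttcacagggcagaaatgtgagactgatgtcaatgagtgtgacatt
NOTCH3 probe at base 7966: taatatggcttctggtcaaaatccctgtgt
JAG2 probe at base 999: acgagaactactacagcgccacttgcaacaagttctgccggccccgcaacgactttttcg
JAG2 probe at base 1230: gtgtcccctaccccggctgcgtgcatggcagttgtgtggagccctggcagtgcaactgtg
JAG2 probe at base 4419: gcgtttgttaccagaggttgtgcactgttt

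Among the receptors, NOTCH3 was lower in both resistant lines and NOTCH4 was higher in OR1, while NOTCH2 stayed within the technical SD of a ratio of 1 on the probe used for the gene. NOTCH3 (NM_000435), a receptor known for its role in vascular smooth muscle and in airway cells, has 1 probe at chr19:15270489-15270548. Its scaled intensity was 5.03 in H1975, against 0.577 for OR1 and 1.19 for OR2. Both resistant lines were below the parent, and OR1 was below OR2. In bulk RNA, fewer cells with the transcript and less of it per cell cannot be told apart. The ratio to H1975 was 0.115 for OR1 and 0.236 for OR2, each with an SD of 0.21 in log2 units. The ratio of OR2 to OR1 was 2.06, with the same SD. NOTCH3 was the 1 member of 8 measured that was called higher in OR2 than in OR1, where 2.48% of 21451 genes were higher and 2.89% were lower, and 0 members were called lower. The decrease in both lines was called under every normalization and background correction tried. With normexp, another background correction, the ratio of OR2 to OR1 was 1.60, below the ratio of the methods.

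NOTCH4 (NM_004557), a receptor best known from the endothelium, has 1 probe at chr6:32162624-32162683. Its scaled intensity was 0.205 in H1975, against 0.523 for OR1 and 0.291 for OR2, above the background limit on all 3 arrays, with OR1 the highest. The ratio was 2.55 for OR1 (technical SD 0.24 on the log2 scale) and 1.42 for OR2 (SD 0.25). The ratio of OR2 to OR1 was 0.556 (SD 0.23) and was not called. The increase in OR1 was not called with normexp, at a ratio of 1.58, or with scaling on the spike-in probes, at 1.68. With that scaling the whole OR1 distribution shifted, by -0.60 at the median log2 ratio. Of 5 endothelial markers 3 were above background on all 3 arrays, and their summed scaled intensity over the list was 0.602, 0.748 and 0.678 in H1975, OR1 and OR2. PECAM1, the endothelial adhesion molecule, had a ratio of 2.10 for OR1 and 1.19 for OR2. The samples are cultures of the H1975 cancer line and of lines selected from it. A link between the PECAM1 and NOTCH4 values was not tested. The other markers had no called increase, with VWF at 0.776 and 0.927, CDH5 at 0.664 and 1.21, and KDR and TEK not above background on any array.

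NOTCH1 (NM_017617) encodes the receptor first found as a translocation partner in T cell leukaemia. Its probe at chr9:139390523-139390582, which ends in the stop codon, had the higher mean and stood for the gene. This probe read 1.34 in H1975, against 1.35 for OR1 and 1.47 for OR2 as scaled intensity. The ratio was 1.0 for OR1 and 1.09 for OR2, each with a technical error (SD) of 0.21 on the log2 scale, so neither line was separated from the parent. The second NOTCH1 probe lies 759 bases further along the transcript and also 759 bases away in the genome, at chr9:139389764-139389823. It read 0.334 in H1975, against 0.286 for OR1 and 0.772 for OR2, and OR2 stood above the other lines. Its ratio was 0.856 for OR1 (SD 0.24) and 2.31 for OR2 (SD 0.22), and OR2 over OR1 was 2.69. The range between the NOTCH1 probes was 0.23 on the log2 scale for OR1 and 1.08 for OR2. With normexp the second probe gave 1.61 in OR2, which is not called, and with the median over probes the gene gave 1.59 in OR2. The NOTCH1 value in OR2 thus depended on the probe and on the background correction, and in OR1 neither probe was called.

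NOTCH2 (NM_024408) encodes a receptor that is widely made in epithelia. The probe at chr1:120454858-120454917, near the end of the transcript, stood for the gene and read 19.7 in H1975, against 18.8 for OR1 and 20.4 for OR2. The ratio was 0.954 for OR1 and 1.04 for OR2, each with a technical error (SD) of 0.20 on the log2 scale. The probe near the start of the transcript, at chr1:120539807-120539866, read 3.57 in H1975, against 3.38 for OR1 and 2.97 for OR2. This probe gave ratios of 0.945 and 0.831, and its annotation lists a transcript of NOTCH2NLA, a partial copy of NOTCH2, beside NOTCH2. Transcripts of the copy and of NOTCH2 cannot be told apart on it. A separate probe labelled NOTCH2NL gave 0.881 for OR1 and 0.845 for OR2. None of these values was called.

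Among the ligands, JAG1 had ratios below 1 that were not called, JAG2 depended on the probe and DLL1 was below background. JAG1 (NM_000214), the ligand whose loss causes Alagille syndrome, has 1 probe at chr20:10619061-10619120. Its scaled intensity was 3.89 in H1975, against 2.21 for OR1 and 2.72 for OR2. Both resistant lines were below the parent, at a ratio of 0.569 for OR1 and 0.699 for OR2, each with a technical error (SD) of 0.20 on the log2 scale. With spike-in scaling the ratio was 0.375 in OR1, past the ratio of the methods.

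JAG2 (NM_145159 and NM_002226) encodes a second Jagged ligand, and its 3 probes list the same pair of RefSeq transcripts. The probe at chr14:105618531-105618590 stood for the gene and read 11.7 in H1975, against 11.6 for OR1 and 11.4 for OR2. Its ratio was 0.991 for OR1 and 0.973 for OR2, each with a technical error (SD) of 0.20 on the log2 scale, and the 3 lines were not separated. The probe at chr14:105608674-105608733, which is nearest to the end of the transcript, read 3.39 in H1975, against 0.435 for OR1 and 0.444 for OR2. Its ratio was 0.129 for OR1 and 0.131 for OR2, each with an SD of 0.21, and OR2 over OR1 was 1.02. The third probe, at chr14:105622147-105622206, lies 231 bases before the first in the transcript and read 0.173 in H1975, against 0.109 for OR1 and 0.0935 for OR2, close to the background limit. Its ratio was 0.631 for OR1 (SD 0.34) and 0.540 for OR2 (SD 0.35), and neither was called. The probes at bases 1230 and 4419 lie 3189 bases apart in the transcript, and both were well above background on all 3 arrays. With the median over probes in place of the probe with the highest mean, JAG2 was at 0.129 for OR1 and 0.131 for OR2, past the ratio of the methods.

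The spread over probes was set beside that of 4358 genes with several probes well above background on all 3 arrays. The median range of the log2 ratio within a gene was 0.31 for OR1 and 0.31 for OR2, and the JAG2 range was 2.95 for OR1 and 2.89 for OR2. A range at least as wide as that of JAG2 occurred, JAG2 included, in 19 of these genes (0.436%) in OR1 and 13 (0.298%) in OR2. The NOTCH1 range of 1.08 in OR2 was reached by 316 genes (7.25%), NOTCH1 included. Of 269 genes with any probe called lower in both lines, 180 (66.9%) also had a probe that was not. What separates the JAG2 probes was not tested.

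**Figure D2:**
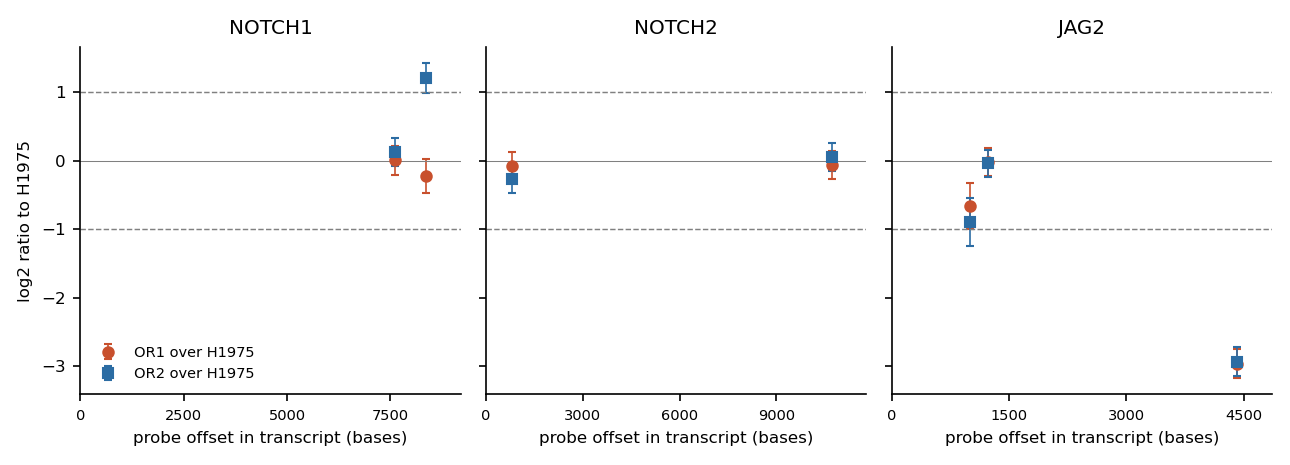
Log2 ratio of OR1 and OR2 to H1975 for each probe of the members with several probes, against the offset of the probe in the transcript in bases. Bars are the technical SD and dashed lines mark ratios of 2 and 0.5. The JAG2 probe at base 4419 is near -3 in both lines while the probe at base 1230 is near 0, and the NOTCH1 probes part in OR2.

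DLL1 (NM_005618), a Delta ligand with roles in somite and neural development, has 1 probe at chr6:170591642-170591701. Its scaled intensity was 0.0171 in H1975, against 0.0178 for OR1 and 0.0186 for OR2. All 3 values were below the background limit, and no ratio was computed.

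Among the target genes, HEY1 was lower in both resistant lines, and HES1 and HEYL had ratios below 1 that were not called. HEY1 (NM_001040708) encodes a repressor of the HES and HEY family that Notch induces. Its probe at chr8:80676312-80676371 had a scaled intensity of 1.34 in H1975, against 0.0321 for OR1 and 0.0477 for OR2. HEY1 was well above background in the parent and below the limit in both resistant lines. The ratio was at most 0.0614 for OR1 and at most 0.0580 for OR2. No ratio of OR2 to OR1 was computed, since neither was above background. The technical error of the measured values in log2 units was an SD of 0.81 for OR1 and 0.54 for OR2, the largest among the members with a ratio. With normexp the ratio was at most 0.259 for OR1 and at most 0.235 for OR2, still past the ratio of the methods.

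HES1 (NM_005524), the founding Notch target and a repressor of differentiation genes, has 1 probe that spans 188 bases of the genome at chr3:193854276-193854463 and so crosses a splice junction. Its scaled intensity was 0.354 in H1975, against 0.184 for OR1 and 0.178 for OR2. Both resistant lines were below the parent and close to each other. The ratio was 0.519 for OR1 (technical SD 0.27 on the log2 scale) and 0.503 for OR2 (SD 0.26), just short of the ratio of the methods, and OR2 over OR1 was 0.970. HES1 passed the ratio of 0.5 in OR1 with quantile normalization (0.495), the authors' normalized intensities (0.494), median scaling (0.482), no scaling (0.455) and spike-in scaling (0.342), and with median scaling also in OR2 (0.497). With normexp it was at 0.821 in OR1 and 0.767 in OR2. The HES1 call thus turned on the scaling.

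HEYL (NM_014571), a HEY1 relative known from vascular smooth muscle, has 1 probe at chr1:40089841-40089900. Its scaled intensity was 0.521 in H1975, against 0.369 for OR1 and 0.278 for OR2. The ratio was 0.708 for OR1 (technical SD 0.22 on the log2 scale) and 0.534 for OR2 (SD 0.23), and OR2 over OR1 was 0.755. With spike-in scaling the ratio was 0.466 in OR1.

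**Figure D3:**
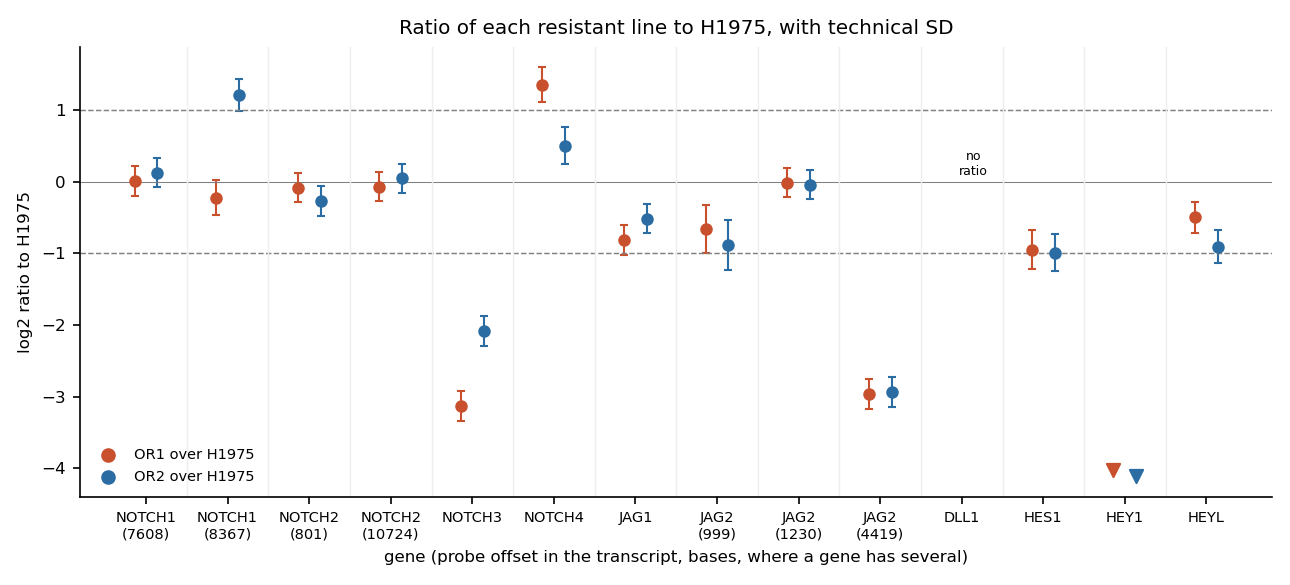
Log2 ratio of OR1 and OR2 to H1975 for each probe of the 10 Notch genes. Bars are the technical SD, triangles are upper bounds, and dashed lines mark ratios of 2 and 0.5. NOTCH3, HEY1 and 1 of the 3 JAG2 probes lie below the lower line in both resistant lines, and NOTCH4 lies above the upper line in OR1.

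RBPJ recognises DNA sites with the core TGGGAA, and the promoters of HES1 and HEYL are shown because they were the members' promoters that held it. In the RefSeq promoter table (GRCh38.p14), 8 members had an entry and HEY1 and DLL1 were not among them. The 250 bases before the start of each gene were searched for TGGGAA or its reverse complement TTCCCA. Of the 8 members, 2 held at least 1 match (HES1 and HEYL) and 6 held none, where 7321 of 35116 promoters (20.8%) held a match and 1017 (2.90%) held at least 2. Capitals mark the matches. In HES1, at chr3:194135898-194136147 on the plus strand, they begin 84 and 70 bases before the start. In HEYL, at chr1:39639644-39639893 on the minus strand, they begin 178 and 99 bases before it. A match is a description of letters and not of binding.
HES1 promoter: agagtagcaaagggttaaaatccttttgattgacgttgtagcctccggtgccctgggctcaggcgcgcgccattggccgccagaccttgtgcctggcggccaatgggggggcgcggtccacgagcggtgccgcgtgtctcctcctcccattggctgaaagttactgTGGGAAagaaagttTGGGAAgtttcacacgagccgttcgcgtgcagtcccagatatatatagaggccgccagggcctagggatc
HEYL promoter: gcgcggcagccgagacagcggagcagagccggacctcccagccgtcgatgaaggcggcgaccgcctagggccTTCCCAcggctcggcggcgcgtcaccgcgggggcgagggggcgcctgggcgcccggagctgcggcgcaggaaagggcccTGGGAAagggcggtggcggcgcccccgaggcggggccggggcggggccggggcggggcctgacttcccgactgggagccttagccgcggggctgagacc

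**Figure D4:**
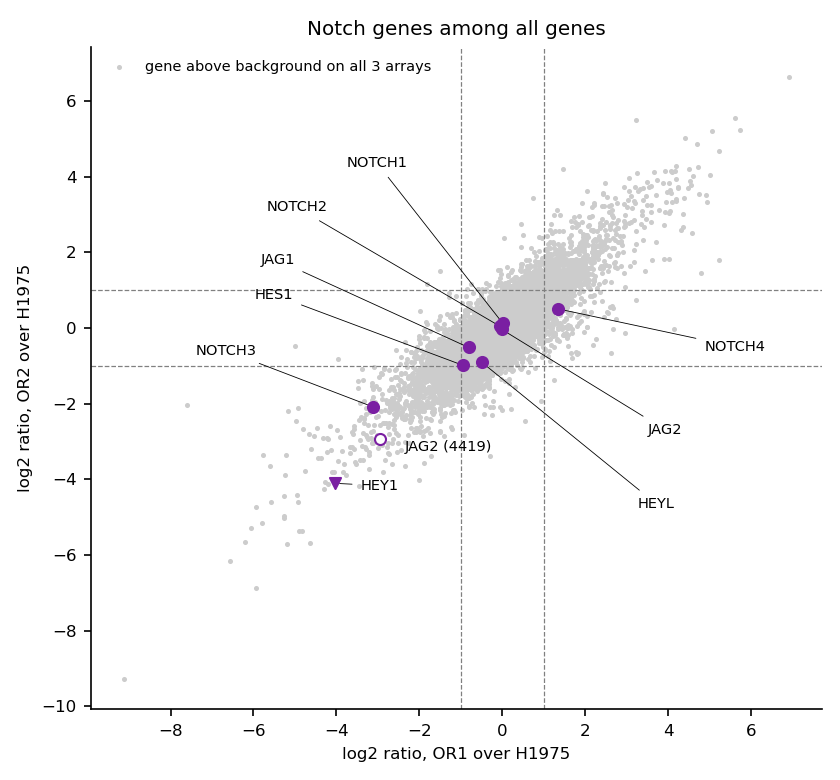
Log2 ratio of OR2 to H1975 against that of OR1 to H1975 for genes called above background on every array (grey) and the 9 measured Notch genes (purple). The triangle is the upper bound of HEY1, the open point is the JAG2 probe at base 4419, and dashed lines mark ratios of 2 and 0.5. NOTCH3 and HEY1 lie in the lower left, and NOTCH1, NOTCH2 and JAG2 lie near 0. Both axes share the H1975 array.

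The other genes of the pathway, whose ratios are given for OR1 first and OR2 second, were read from 6 lists with 55 genes, of which 50 were measured. In OR1, 9 were called higher and 3 lower, against 9.17% and 9.58% of all measured genes. In OR2, 7 were called higher and 2 lower, against 7.72% and 8.7%. In both lines 7 were higher and 1 was lower, against 5.09% and 6.32%. The median log2 ratio of the listed genes was 0.00 for OR1 and 0.06 for OR2. The 7 genes higher in both were spread over 4 of the 6 lists.

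Of the 8 genes for receptor cleavage, 0 were called in either line. APH1A, a gamma-secretase subunit, was at 0.551 for OR1 and 0.817 for OR2, and APH1B, its relative, was at 1.59 and 1.25. APH1A passed the ratio of 0.5 in OR1 with no scaling (0.483) and with spike-in scaling (0.363). RBPJ, the DNA-binding protein of the pathway, had a ratio of 1.25 for OR1 and 1.22 for OR2, each within the ratio of the methods. Of the 5 genes for receptor glycosylation, POGLUT1, which adds glucose to Notch, was higher in both at 2.49 and 2.84. The OR1 call of POGLUT1 was lost with spike-in scaling (1.64) and with normexp (1.92). LFNG, a Fringe that alters which ligands a receptor answers, had ratios of 0.585 and 0.728 and was not called. Its second probe was at 0.980 and 1.13. With spike-in scaling LFNG was at 0.385 in OR1, past the ratio of the methods.

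Among 16 genes of the nuclear complex, 3 were higher in both lines. TLE4, a co-repressor of the Groucho family, had ratios of 18.2 for OR1 and 15.3 for OR2, from a scaled intensity of 0.0838 in H1975, near the background limit, to 1.52 and 1.29. TLE4 had further probes with at least 6.36 and at least 4.54, at least 4.81 and at least 3.62, 1 that was measured in OR1 alone, with at least 1.87 and no call, and 2 that were not measured. Normexp gave 4.37 and 3.70 for the gene, and the median over probes gave at least 3.0 for OR1 and at least 1.78 for OR2, where the call is lost. TLE2, its relative, was at 2.05 and 3.74, and KAT2B, an acetyltransferase co-activator, was at 4.03 and 5.47. TLE2 was below the ratio of 2 in OR1 with spike-in scaling (1.35), normexp (1.73), no scaling (1.80) and median scaling (1.91).

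Among 13 genes of ubiquitination and sorting, MIB2 and NEURL1, ubiquitin ligases that act on ligands, were higher in both, at 2.80 and 2.23 and at 2.47 and 3.56. NEURL1B, a relative of NEURL1, was lower in both at 0.345 and 0.301. With spike-in scaling MIB2 was at 1.84 and NEURL1 at 1.62 in OR1, and with the median over probes MIB2 was at 1.48 in OR2 and NEURL1B at 0.778 and 0.666. Among the 5 other ligands, DLK2, a non-canonical ligand, was higher at 3.07 and 2.91, and DNER was at 0.917 and 0.911. DLL4 was not above background. Of the 8 other genes of the HES and HEY families and NRARP, 5 were measured and 0 were called in both lines. HES2, a HES1 relative, was at 0.491 and 0.633, and its second probe was at 0.249 and 0.449. HES6, an antagonist of HES1, was at 0.981 and 0.791 on the probe that stood for the gene. Another of its probes was past the ratio in both lines, at 0.354 and 0.487. A further HES6 probe was past it in OR1 only, at 0.374 and 0.758, and the last was at 0.689 and 0.797. NRARP, a feedback target of Notch, was at 0.70 and 0.664. HES3, HES5 and HEY2 were not above background on any array.

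**Figure D5:**
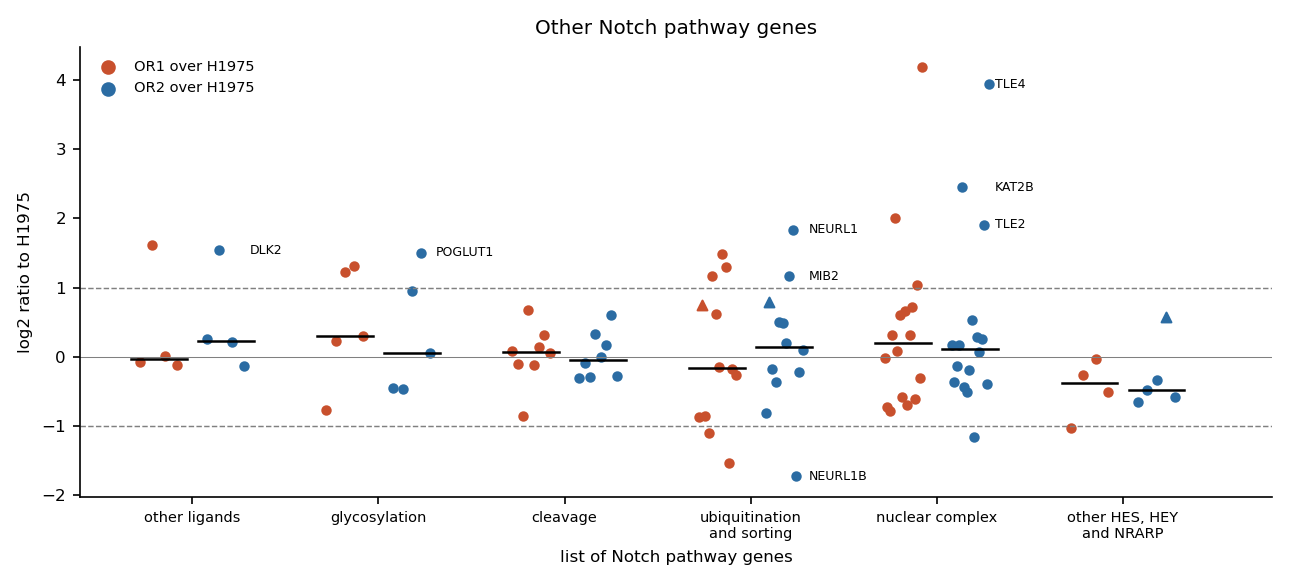
Log2 ratio of OR1 and OR2 to H1975 for 50 measured genes of 6 other Notch pathway lists. Each point is a gene, triangles are lower bounds, bars are list medians and dashed lines mark ratios of 2 and 0.5. Named genes were called in both lines, and the medians lie between -0.48 and 0.30.

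Markers of cell types bear on how the samples can be read. The lung adenocarcinoma epithelial markers were above background on all 3 arrays, 8 of 8. Of these, 4 were lower in both resistant lines, against 6.32% of all measured genes. EPCAM was at 0.0370 and 0.0725 and CDH1, which encodes E-cadherin, at 0.0205 and 0.0800, while KRT8 was at 1.12 and 0.964. The summed scaled intensity of the 8 was 2486 in H1975, against 1073 for OR1 and 1072 for OR2. KRT19, KRT7 and KRT18 made up most of this sum, at 952, 835 and 476 in H1975. NOTCH3 and HEY1 were lower in the same lines, and the part of the epithelial change in the Notch values was not tested. Of 6 fibroblast markers 2, 3 and 1 were above background in H1975, OR1 and OR2, with sums of 4.27, 4.96 and 0.645. Sums over a list include its genes below background. The fibroblast markers did not move together in OR1, and COL1A2 was lower in both lines. In OR1 COL1A1 was at 1.45, COL1A2 was 6.18-fold lower and LUM was at least 5.43-fold higher. In OR2 COL1A1 was 5.45-fold lower and COL1A2 at least 16.3-fold lower, and LUM was not above background. Of 4 blood cell markers 3 were above background, with sums of 3.67, 8.80 and 13.5, in which CD14 was at 4.25 and 6.56, and CD3E was not above background.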

How the data were processed

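Total RNA of H1975, OR1 and OR2 was labeled by the authors with Cy3, and each line was hybridized to 1 Agilent array. The deposited files are scanner output, in which the intensity of each spot had its background corrected by the authors' software, array by array and with no scaling between them. The submitters' processing notes name Feature Extraction 9.5.1.1 and the file headers 10.7.1.1. A second deposited table of normalized intensities, whose method is not given in the sources used here, was used only as an alternative. Control and outlier spots were removed, repeated spots of a probe were averaged as log2 values, and the 75th percentile of each array was subtracted. The probe with the highest mean over the arrays stood for each gene. OR1 and OR2 were compared with H1975, and OR2 with OR1, with ratios of 2 and 0.5 and without a test. Probe positions are those of the files, on hg19.

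The members, the pathway and marker lists and the alternatives were chosen with earlier results of these data known. All 10 members are named with all probes. Of the other lists, every gene past the ratio in both lines and the genes with the highest and lowest mean log2 ratio are named. The values of some listed genes are not reported here. RBPJ, NRARP, the genes listed as not above background and the markers given with values were added after their values were seen. The alternatives were other scalings (quantile, median, none, 7 spike-in probes, probes above background on all arrays), normexp with an offset of 50, the authors' normalized intensities, other background filters, outlier spots kept, the median over probes, ratios of 1.5 and 4, and limma with OR1 and OR2 as 2 samples. The ratio calls were tested on simulated data with known changes and the technical error only, for genes above background on all arrays. The simulation held no spread between cultures, so it cannot show how the calls behave under such spread. Python 3.11.15, numpy 2.4.6, pandas 2.3.3, matplotlib 3.10.9, R 4.3.3 and limma 3.58.1 were used.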

Additional observations from a re-analysis of the deposited data

Results flagged for a closer look

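No Notch receptor, ligand or target probe had ratios on opposite sides of 1 in OR1 and OR2, each beyond its technical SD. Among the other listed genes 5 did, with no test of the difference. MFNG, a Fringe glycosyltransferase that acts on Notch receptors, was at 1.17 for OR1 and 0.724 for OR2. MAML2, a co-activator of the Notch complex, was at 1.52 for OR1 and 0.702 for OR2. TLE1, a Groucho co-repressor, was at 0.651 for OR1 and 1.19 for OR2. NKX2-1, a lung lineage transcription factor, was at 0.252 for OR1 and 1.36 for OR2, and NAPSA, a lung protease gene, had 0.770 and 1.57.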

How the results depend on the processing

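No ratio reported for a named gene turned its direction while past the ratio of the methods. Of 656 values of named ratios under the alternatives, 566 moved by less than their technical SD and 90 by more, and the spike-in scaling made 34 of these, normexp 32 and the median over probes 14. The median log2 ratio over all genes shifted in OR1 by -0.60 (spike-in scaling), -0.19 (no scaling) and -0.11 (median scaling).

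Members called lower in OR1 numbered 4 without scaling, 5 with spike-in scaling, 1 when all 3 arrays had to be above background and 4 at a ratio of 1.5. Members called higher in OR1 numbered 0 with spike-in scaling, 0 with normexp and 0 at a ratio of 4. Members lower in OR2 numbered 1 with all 3 arrays above background and 4 at a ratio of 1.5, and members lower in both lines numbered 1 under that filter, 1 with limma, and 3 with median scaling, with the median over probes and at a ratio of 1.5. Members higher in OR2 than in OR1 numbered 0 with normexp and 0 at a ratio of 4, and 1 was lower at a ratio of 1.5. The filter removes HEY1, which was below background in the resistant lines. The limma model left 1 residual degree of freedom, and H1975 was assumed to vary like the resistant lines. The member it called at a Benjamini-Hochberg adjusted p under 0.05 was HEY1, whose OR1 and OR2 values in that fit are readings below background, so nothing is read from it.

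Of the other pathway genes, 7 were higher in both lines, against 3 with spike-in scaling, 2 at a ratio of 4 and 1 with limma. Lower in both was 1, against 2 with spike-in scaling, 4 at a ratio of 1.5, and 0 with the median over probes, 0 at a ratio of 4 and 0 with limma. Over all genes, 1141 higher in both became 591 with spike-in scaling, 461 with normexp, 2057 with no background filter, 2573 at a ratio of 1.5, 265 at a ratio of 4 and 208 with limma. The 1417 lower in both became 705 with normexp, 873 with all 3 arrays above background, 2437 with no filter, 2957 at a ratio of 1.5, 422 at a ratio of 4 and 373 with limma. Leaving out a replicate was not possible with 1 array per line.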
